A study of Mus musculus with 6 samples.

Results

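The 34 genes described here encode the actin cytoskeleton of pancreatic islets together with 2 regulators of its transcription and 4 target genes of the coactivator YAP. They were found by symbol among the 23179 gene rows (22923 distinct symbols) of each library, and each of the 34 matched 1 row. The list was chosen by known function, but with the differences between these KO and WT FPKM values already in view (Vcl and Myo1e were known to be among the largest rises), so the comparison below is a description of the genes and supports no statement about the list as a whole. The islet donors were male C57BL/6J mice, 10 to 14 weeks old, either wild type (WT) or Ffar3-/- (KO), the loss of the gene for free fatty acid receptor 3, a receptor of short-chain fatty acids. Each group had 3 libraries, called biological replicates in the labels, and each library was made from islets picked out of a pool from 2 pancreata. The labels do not say which part of Ffar3 is deleted, whether the mice were littermates, or in which cells the receptor acts.

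Actin filaments are built from beta and gamma actin, held at their sides by tropomyosins, calponins and caldesmon, crosslinked by alpha-actinins and filamin, pulled by myosins and anchored at adhesion plaques through vinculin, talin, paxillin and zyxin. Their genes are transcribed under serum response factor (SRF), whose coactivator MRTF-A (gene Mkl1) is held in the cytoplasm by monomeric actin and released when actin polymerises, and under YAP and TAZ, which bind DNA through TEAD factors and answer to cell tension and to the Hippo kinases. In beta cells, cortical actin filaments lie between the insulin granules and the plasma membrane and are remodelled during glucose-stimulated secretion.

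Values were read as FPKM, fragment counts scaled to transcript length and to a size factor for each library. How the libraries were scaled to each other is not stated. Ffar3 itself ranged from 4.69 to 6.68 FPKM in WT, while KO replicate 3 had 0.105 and both other KO libraries list it at 0. Read depth is not in the files. From the commonest ratio among values under 0.06 FPKM in WT replicate 1, 1 FPKM stood for an estimated 59.3% as many fragments in KO replicate 3, 89.5% in KO replicate 2 and 108% to 119% in the other libraries. Summed acinar genes, of which 29 of the 30 listed were found, were at 29373 to 46400 FPKM in WT and at 27437, 275536 and 587865 in KO replicates 1, 2 and 3. Of 11 lymphoid markers, 10 were higher in all KO than in all WT libraries, with sums of 8.004 to 8.82 FPKM in WT and 95.0, 182 and 18.4 in KO. The 11 duct markers summed to 1105 to 1213 FPKM in WT and 1311, 1583 and 1879 in KO. Of them 6 were higher in all KO libraries, among them Krt19 (0.825 to 1.12 FPKM in WT, 3.35, 23.3 and 30.8 in KO). The 1 that was lower in all KO libraries was the more abundant Krt7 (130.9 to 137 FPKM in WT, 130.7, 112 and 121 in KO). The 14 stellate and smooth muscle markers summed to 42.5 to 45.5 FPKM in WT and 32.9 to 44.6 in KO, and the 10 endothelial markers to 157 to 202 and 146 to 173. Beta cell markers such as Iapp (34745 to 36606 FPKM in WT, 27415 to 33357 in KO) were high in all libraries, although Ins2 was listed at 0 in all 6 and Ins1 at 0 in all but KO replicates 2 and 3 (43721 and 48334). Of the 11 beta cell markers 0 were higher and 6 lower in all KO libraries, among them Mafa (197 to 213 FPKM in WT, 44.7 to 101 in KO) and Ucn3 (326 to 364 and 164 to 221). Beside these marker counts, KO and WT libraries did not overlap, in either direction, for 56.3% of all genes averaging 1 FPKM or more. In such bulk samples fewer cells of a type and less RNA per cell cannot be told apart, and the part of these other cells in the differences below was not tested except where a value is given.

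Most structural genes of the list were higher in KO islets, while Srf and the YAP target Amotl2 were lower and beta and gamma actin were not called. Of the 34 genes, 32 had a mean of at least 1 FPKM and were tested, and Cnn1 and Tpm2 were below it. In limma on log2(FPKM + 1), with Benjamini-Hochberg adjustment over all 11669 tested genes, 17 were called higher and 3 lower in KO at an adjusted p under 0.05. Over all tested genes 20.3% were called higher and 19.6% lower, 39.9% in either direction. The median log2 difference of the 32 was 0.49, against -0.01 over all tested genes. The KO and WT libraries did not overlap for 23 of the 32, 19 with KO above and 4 with KO below, and for 56.3% of all tested genes. With KO replicate 1, whose acinar sum was below that of every WT library, set alone against WT (its spread assumed equal to that within WT), 17 were called higher and 5 lower, where 26.1% of all tested genes were called in either direction. That comparison uses part of the same libraries and shared 15 of the higher and all 3 of the lower calls.

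**Figure D1:**
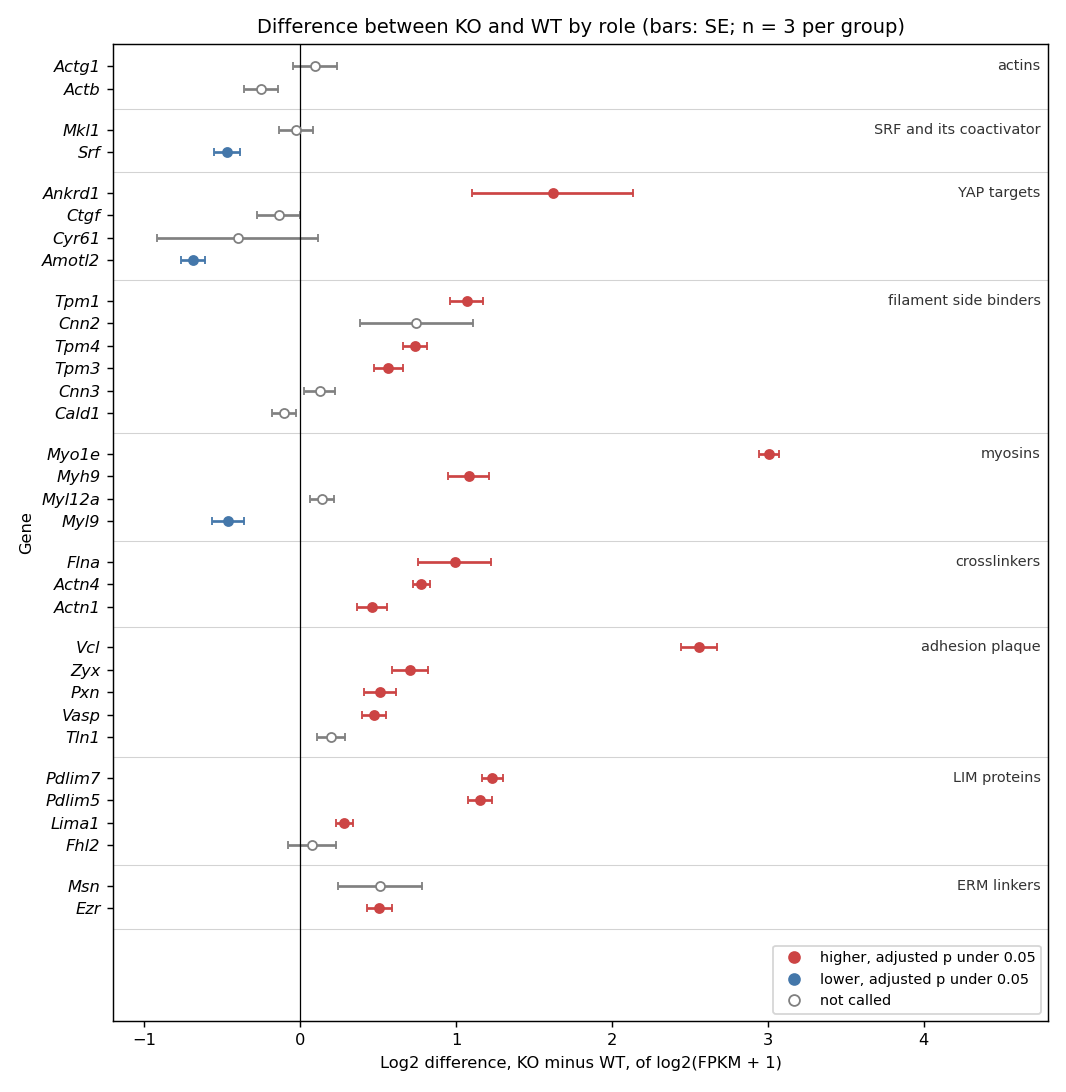
Log2 difference (x axis, KO minus WT, of log2(FPKM + 1)) of the 32 tested genes (y axis), grouped by role, with bars for the standard error and 3 libraries per group. Filled red points were called higher and filled blue points lower in limma. Myo1e at 3.01 and Vcl at 2.56 stand far to the right, the crosslinkers are all higher, and Srf, Myl9 and Amotl2 lie to the left of 0.

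The 2 cytoplasmic actins were the most abundant members. Gamma actin (Actg1, chr11:120345690-120348542, GRCm38) was at 1811, 1797 and 1707 FPKM in WT replicates 1, 2 and 3 and at 1833, 1909 and 1932 in KO. All KO libraries lay above all WT libraries, but the log2 difference was only 0.09 (SE 0.14, adjusted p = 0.61 in limma), and under quantile normalization it turned to -0.67 (adjusted p = 0.16). Beta actin (Actb, chr5:142903115-142906754) was at 1014, 1022 and 999 FPKM in WT and at 796, 850.2 and 908 in KO, with all KO libraries lower. Its log2 difference of -0.25 (SE 0.11) was not called (adjusted p = 0.10), and was called lower for KO replicate 1 alone (-0.35, adjusted p = 0.023) and after making sums outside the acinar genes equal (-0.33, adjusted p = 0.049). Quantile normalization gave -0.54 (adjusted p = 0.072). Within a library the ratio of Actb to Actg1, which a single scaling factor per library does not change, was 0.560, 0.569 and 0.586 in WT and 0.434, 0.445 and 0.470 in KO. As deposited, the 3 KO ratios were all below the 3 WT ratios, while the quantile-normalized differences of -0.54 for Actb and -0.67 for Actg1 turn that direction (exact two-sided permutation test on the deposited values, p = 0.1, the smallest that 3 against 3 allows). The actin sum was 2784 FPKM (SD 67.1, n = 3) for WT islets and 2743 FPKM (SD 106, n = 3) for KO islets, so the groups overlapped in the sum. Both actins have many processed pseudogenes, and how the FPKM estimate divided reads among them is not given.

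Srf, the transcription factor of this gene set, was lower in KO islets while its coactivator gene was not. Srf (chr17:46548329-46556175) was at 99.0, 107 and 91.8 FPKM in WT and at 75.5, 65.1 and 73.6 in KO. The groups did not overlap, and the log2 difference was -0.47 (SE 0.08, adjusted p = 0.0064 in limma). This call held in all 14 alternative analyses run, with differences between -0.55 and -0.39. Mkl1 (chr15:81012281-81190757), which encodes MRTF-A, was at 5.06, 4.52 and 4.63 FPKM in WT and at 4.60, 5.49 and 3.89 in KO, with overlapping groups and a log2 difference of -0.03 (SE 0.11, adjusted p = 0.85). Srf is itself an immediate early gene, and it is also a target of its own product.

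SRF binds the CArG box, and TEAD factors bind the letters GGAATG, which read CATTCC on the other strand. Both were searched, with the AP-1 letters TGANTCA, in the RefSeq promoters of GRCm38.p6, which run from 250 bases before to 50 after each start. The motifs can overlap, and each was searched on both strands. Of the 34 genes 31 matched the table by current or older symbol, with 36 promoters. A CArG box was in a promoter of 8 of these 31 genes (25.8%) against 1.81% of all 27025 genes in the table, and 1.63% of all 32851 promoters held one. The TEAD letters were in 9 of 31 (29.0%) against 16.6% of genes, and the AP-1 letters in 5 of 31 (16.1%) against 8.97%. Since the list was written as SRF and YAP targets, these shares describe it and are no separate evidence.

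**Figure D2:**
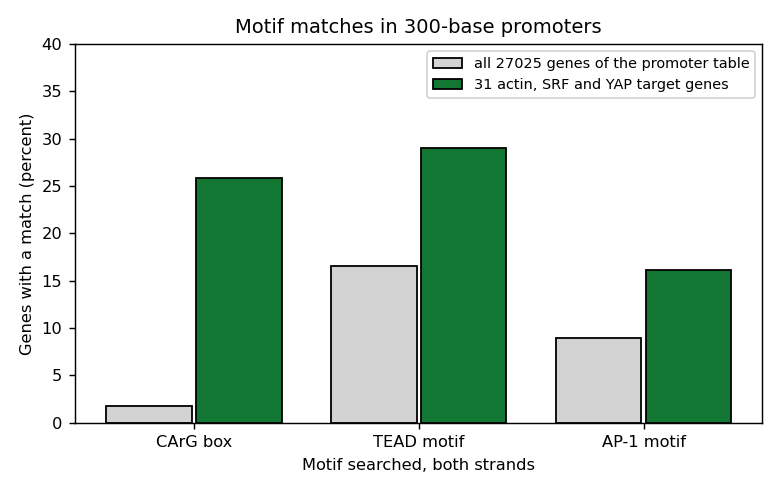
Share of genes (y axis, percent) with at least 1 match to each motif (x axis) in a RefSeq promoter, for all 27025 genes of the table (grey) and the 31 listed genes found in it (green). The CArG box is at 25.8% of the listed genes and 1.81% of all genes, a wider gap than for the TEAD letters (29.0% and 16.6%) or the AP-1 letters (16.1% and 8.97%).

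The 8 genes with a CArG box were Myo1e, Vcl, Lima1, Srf, Myl9, Actg1, Cnn2 and Fhl2. Of them 3 were called higher and 2 lower, against 20.6% and 19.6% of tested genes in the promoter table outside the list. The 250 bases before the start are shown for Myo1e and Vcl, the 2 largest rises on the log2(FPKM + 1) scale (by ratio of means Ankrd1, at 18.4, is above both), for Lima1, a small rise, for Srf, which fell and has 2 boxes, for Cnn2, which was not called, and for the YAP target Cyr61, which holds the TEAD letters. Capitals mark CArG boxes and TEAD letters, and each line reads 5′ to 3′ on the strand of the gene.
Myo1e (chr9:70207100-70207349, GRCm38.p6, plus strand): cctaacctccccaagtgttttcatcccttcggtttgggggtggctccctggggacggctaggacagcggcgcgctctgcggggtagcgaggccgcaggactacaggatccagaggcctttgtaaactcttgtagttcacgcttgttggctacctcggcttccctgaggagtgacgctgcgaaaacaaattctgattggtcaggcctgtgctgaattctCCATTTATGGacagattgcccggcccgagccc
Vcl (chr14:20929148-20929397, GRCm38.p6, plus strand): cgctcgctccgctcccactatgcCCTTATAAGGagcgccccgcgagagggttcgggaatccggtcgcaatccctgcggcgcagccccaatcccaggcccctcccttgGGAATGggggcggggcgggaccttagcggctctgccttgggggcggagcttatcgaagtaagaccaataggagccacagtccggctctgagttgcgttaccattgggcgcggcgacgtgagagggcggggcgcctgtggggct
Lima1 (chr15:99820150-99820399, GRCm38.p6, minus strand): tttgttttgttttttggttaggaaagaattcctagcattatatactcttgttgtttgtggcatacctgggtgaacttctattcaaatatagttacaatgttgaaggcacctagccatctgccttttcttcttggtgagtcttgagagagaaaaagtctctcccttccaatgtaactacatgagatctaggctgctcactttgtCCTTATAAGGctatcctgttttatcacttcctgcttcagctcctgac
Srf (chr17:46556163-46556412, GRCm38.p6, minus strand): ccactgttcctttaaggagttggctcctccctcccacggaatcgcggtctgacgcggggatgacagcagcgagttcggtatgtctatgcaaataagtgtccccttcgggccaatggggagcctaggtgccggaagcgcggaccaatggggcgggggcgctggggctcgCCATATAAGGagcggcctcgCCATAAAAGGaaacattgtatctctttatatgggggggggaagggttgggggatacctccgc
Cnn2 (chr10:79988350-79988599, GRCm38.p6, plus strand): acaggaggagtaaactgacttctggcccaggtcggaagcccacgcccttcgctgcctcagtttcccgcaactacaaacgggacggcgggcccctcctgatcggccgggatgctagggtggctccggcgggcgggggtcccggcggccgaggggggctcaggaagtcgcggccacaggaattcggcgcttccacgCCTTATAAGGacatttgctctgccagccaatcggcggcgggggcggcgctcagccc
Cyr61 (chr3:145649986-145650235, GRCm38.p6, minus strand): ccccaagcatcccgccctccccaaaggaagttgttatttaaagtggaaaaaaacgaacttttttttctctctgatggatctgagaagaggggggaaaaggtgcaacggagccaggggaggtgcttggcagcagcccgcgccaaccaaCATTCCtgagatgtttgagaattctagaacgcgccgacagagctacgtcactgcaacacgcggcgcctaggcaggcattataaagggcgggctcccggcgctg

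In Myo1e the box CCATTTATGG lay 32 to 23 bases before the start, in Lima1 the box CCTTATAAGG 47 to 38 bases and in Cnn2 the same letters 56 to 47 bases before it. Vcl had the letters CCTTATAAGG 227 to 218 bases before its start, with TEAD letters at 143 to 138 bases. Srf had CCATATAAGG at 82 to 73 and CCATAAAAGG at 62 to 53 bases before its start. Lima1 has a RefSeq start inside the longer GENCODE gene, so its window is that of a shorter transcript. Beyond the listed genes, 124 tested genes had a CArG box in a promoter, of which 38 (30.6%) were called higher and 17 (13.7%) lower, against 20.6% and 19.6% of the 8344 tested genes matched to the table by symbol. Of 1184 with the TEAD letters 17.7% were higher and 18.5% lower, and of 503 with the AP-1 letters 26.4% were higher and 15.9% lower. These shares were not tested, and a match to letters does not show that a factor binds there.

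Genes of the adhesion plaque, where filaments meet integrins, were higher in KO for 4 of 5 members, against 20.3% of all tested genes. Vinculin (Vcl, chr14:20929398-21033676), which links talin to actin, was at 7.06, 8.49 and 5.97 FPKM in WT and at 43.8, 46.7 and 49.99 in KO. The groups were far apart, with a ratio of means of 6.53, and the highest KO library was 1.14 times the lowest. The log2 difference of 2.56 (SE 0.11, adjusted p = 0.0002 in limma) kept a range of 2.45 to 2.70 over the 14 alternatives. Exons of Vcl overlap exons of Ap3m1 on the opposite strand, and the strand setting of the counting is not given. Ap3m1 was at 19.0, 19.6 and 19.3 FPKM in WT and at 15.4, 14.9 and 14.6 in KO, a change in the other direction. Opposite-strand exons also overlap Zyx (Epha1, 0.422 to 0.725 FPKM in WT and 0.958 to 1.42 in KO) and Ezr (Sytl3, 1.03 to 1.46 and 0.378 to 0.807). They overlap Actn4 too (Capn12, at most 0.0147 FPKM in WT and 0.0527 in KO), and annotated antisense genes overlap exons of Actn1 and Tpm4. The part of opposite-strand reads in the values of these genes was not tested.

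Zyxin (Zyx), a LIM protein of tensed filaments, rose from 16.2, 20.8 and 17.2 FPKM in WT to 26.1, 30.9 and 33.2 in KO, without overlap (log2 difference 0.70, SE 0.12). The scaffold gene Pxn (paxillin) rose from 7.49, 6.37 and 6.73 FPKM to 9.39, 11.9 and 9.44 (log2 difference 0.51, SE 0.10). Vasp, whose product speeds filament growth, was at 18.9 to 20.4 FPKM in WT and at 25.8 to 30.8 in KO (log2 difference 0.47, adjusted p = 0.0044 in limma). Talin 1 (Tln1), the direct link to integrins, was at 9.25 to 10.6 FPKM in WT and 10.1 to 12.5 in KO. Its groups overlapped and it was not called (log2 difference 0.20, adjusted p = 0.12), except without KO replicate 1 (0.27, adjusted p = 0.027).

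The myosins moved in both directions. Myo1e (chr9:70207350-70399766), a single-headed class I myosin that ties actin to membranes, was at 2.13, 1.95 and 2.24 FPKM in WT and at 23.6, 25.1 and 23.5 in KO. The highest KO library was 1.07 times the lowest and the ratio of the group means was 11.4, with a log2 difference of 3.01 (SE 0.06, adjusted p = 5.0e-06 in limma). Its difference in KO replicate 1 alone was 2.98. Myh9, the heavy chain of nonmuscle myosin IIA, rose from 13.1, 14.3 and 14.2 FPKM to 24.4, 35.4 and 32.7 (log2 difference 1.08, SE 0.13). In KO replicate 1, where acinar and duct sums were lowest among KO, its difference was 0.77 (adjusted p = 0.0026). Of the regulatory light chains, Myl9, the form of smooth muscle, was at 3.38, 3.86 and 3.74 FPKM in WT and lower, at 2.64, 2.55 and 1.97, in KO (log2 difference -0.47, SE 0.10, adjusted p = 0.013). This call was lost without WT replicate 3 (adjusted p = 0.055). Of the 14 stellate and smooth muscle markers 5 were lower in all KO libraries and 0 higher, where 56.3% of all tested genes had groups without overlap in either direction. Among the 5 were Acta2 (2.29 to 3.27 FPKM in WT, 1.06 to 1.84 in KO) and Myh11 (1.07 to 1.31 and 0.571 to 0.788). The part of such cells in the fall of Myl9 was not tested. Myl12a, the widely expressed form, was at 48.7 to 48.9 FPKM in WT and 48.4 to 57.9 in KO and was not called, except without KO replicate 1 (log2 difference 0.22, adjusted p = 0.013). In KO replicate 1 alone it was at -0.01. Myl12a lies beside the near-identical Myl12b, with which its annotated exons overlap, so its value is uncertain.

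Among the proteins that lie along the filament, 3 of the 4 tropomyosins rose, while the calponin and caldesmon genes gave no call. Over all tested genes 20.3% were called higher. Tpm1 (chr9:67022590-67049406) was at 24.9, 23.8 and 23.7 FPKM in WT and at 45.4, 61.2 and 49.9 in KO (log2 difference 1.07, SE 0.11, adjusted p = 0.0009 in limma). Tpm4 (chr8:72134975-72153142) was at 62.9, 67.7 and 56.3 FPKM in WT and at 103, 107 and 103 in KO (log2 difference 0.74, SE 0.08), and Tpm3 (chr3:90072649-90100902) at 43.8, 43.1 and 43.2 and at 58.5, 74.6 and 61.8 (0.57, SE 0.09). None of these 3 genes had overlapping groups. Tpm2, the isoform gene most typical of muscle, was at 0.467 to 0.585 FPKM in WT and 0.289 to 0.468 in KO.

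The tropomyosin sum was 132, 135 and 124 FPKM in WT and 207, 243 and 215 in KO. Set against the actin sum it went from 4.68% ± 0.109 to 8.09% ± 0.652 (mean ± SD, n = 3 per group), a ratio that a single factor per library does not change but quantile normalization, which lowers both actins in KO, does. The deposited ratios did not overlap (exact two-sided permutation test, p = 0.1, the smallest possible). Within the tropomyosin sum the share of Tpm1 was 17.6% to 19.2% in WT and 21.9% to 25.1% in KO, that of Tpm3 31.9% to 34.9% and 28.2% to 30.7%, and that of Tpm4 45.5% to 50.2% and 44.0% to 49.7%. Thus the Tpm1 and Tpm3 shares did not overlap between groups and the Tpm4 share did. Each of these genes makes several isoforms that gene-level FPKM does not separate.

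**Figure D3:**
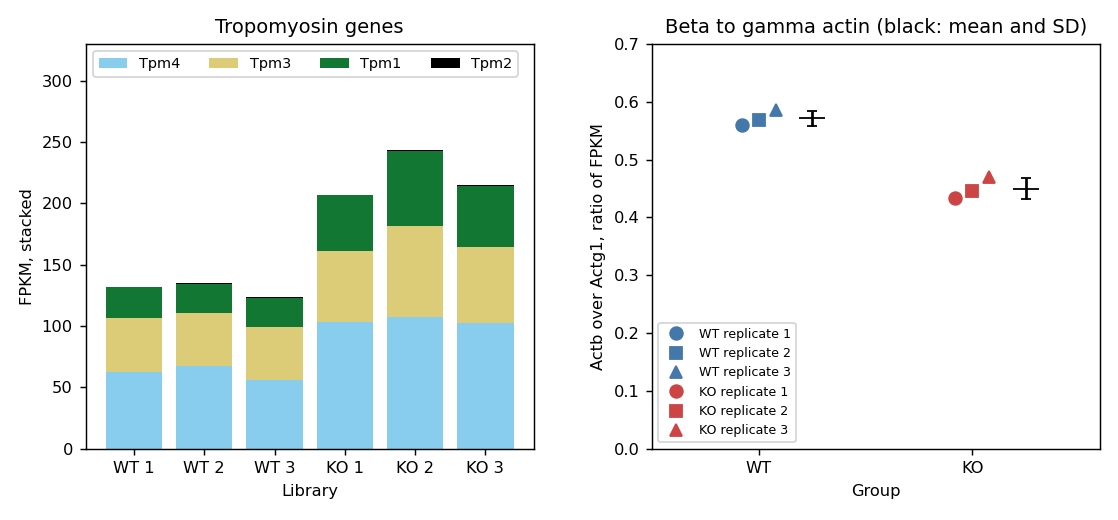
Left, FPKM of the 4 tropomyosin genes stacked for each library (x axis); the 3 KO bars reach 207 to 243 FPKM and the 3 WT bars 124 to 135. Right, ratio of Actb to Actg1 FPKM in each library by group, with the mean and SD in black; the KO ratios (0.434 to 0.470) lie below the WT ratios (0.560 to 0.586) in the deposited values, a direction that turns under quantile normalization.

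Of the calponins, which bind and stabilise filaments, Cnn3 was the most abundant at 80.5 to 88.8 FPKM in WT and 84.9 to 108 in KO, with overlapping groups (log2 difference 0.12, adjusted p = 0.35). It was called higher in KO replicate 1 alone (0.35, adjusted p = 0.021). Cnn2 was at 1.88 to 2.02 FPKM in WT and at 3.55, 7.92 and 1.92 in KO, so KO replicate 3 lay at the WT level and no call was made (log2 difference 0.75, SE 0.36, adjusted p = 0.13). Without KO replicate 3 it was called (1.12, adjusted p = 0.022), as it was for KO replicate 1 alone (0.64, adjusted p = 0.0071), and without KO replicate 2 it was at 0.31 (adjusted p = 0.24). The smooth muscle calponin Cnn1 was at most 0.238 FPKM in any library. Caldesmon (Cald1), which blocks myosin on the filament, was at 5.20 to 5.83 FPKM in WT and 4.59 to 5.32 in KO (log2 difference -0.11, adjusted p = 0.30).

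All 3 crosslinkers were called higher in KO, against 20.3% of all tested genes. The nonmuscle alpha-actinin gene Actn4 (chr7:28893248-28962340) was at 45.6, 44.2 and 45.1 FPKM in WT and at 74.4, 80.6 and 78.4 in KO (log2 difference 0.78, SE 0.05, adjusted p = 0.00037 in limma). Its paralogue Actn1 went from 13.3, 14.7 and 14.6 FPKM to 17.2, 22.2 and 20.8 (0.46, SE 0.10, adjusted p = 0.011), and in KO replicate 1 alone the difference was 0.26 (adjusted p = 0.061). The ratio of Actn4 to Actn1 was 3.17 (SD 0.218, n = 3) for WT islets and 3.91 (SD 0.364, n = 3) for KO islets, without overlap. Filamin A (Flna), which joins crossing filaments and binds integrins, was at 2.71, 2.65 and 2.59 FPKM in WT and at 4.32, 9.75 and 5.69 in KO (log2 difference 0.99, SE 0.23, adjusted p = 0.016). Leaving out WT replicate 1, 2 or 3 ended that call (adjusted p of 0.055, 0.0503 and 0.059), while the difference stayed between 0.98 and 1.003. In KO replicate 1 alone the difference was 0.54 (adjusted p = 0.01).

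Of the 4 LIM domain genes, both PDZ and LIM genes rose, with ratios of means of 2.51 and 2.37. Pdlim7 (enigma, chr13:55495795-55513676) was at 8.03, 7.85 and 8.71 FPKM in WT and at 21.3, 21.3 and 19.2 in KO (log2 difference 1.23, SE 0.07, adjusted p = 0.00028 in limma). Pdlim5 (chr3:142239590-142395696), which tethers kinases to alpha-actinin, was at 8.14, 8.62 and 7.19 FPKM in WT and at 18.1, 19.9 and 18.8 in KO (1.15, SE 0.08, adjusted p = 0.00036). Lima1 (EPLIN), which joins filaments to cadherin contacts, was higher by a small but even step, from 6.45 to 6.79 FPKM in WT to 8.19 to 8.41 in KO (0.28, SE 0.06). Its adjusted p was 0.0084 in limma, rising to 0.097 when sums outside the acinar genes were made equal and to 0.053 for KO replicate 1 alone. Fhl2, a cofactor and classical SRF target, was at 24.3 to 33.2 FPKM in WT and 23.5 to 32.0 in KO, with overlapping groups (log2 difference 0.08, adjusted p = 0.70).

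Ezrin and moesin link filaments to the plasma membrane. Ezrin (Ezr) rose from 35.1, 41.4 and 36.3 FPKM to 54.2, 57.3 and 50.2 (log2 difference 0.51, SE 0.08, adjusted p = 0.0044 in limma). Moesin (Msn), the form that is strong in leukocytes and endothelium, was at 8.58 to 9.58 FPKM in WT and at 11.1, 22.3 and 9.74 in KO. The same log2 difference of 0.51 came with an SE of 0.27 and was not called (adjusted p = 0.16), and without KO replicate 2 the difference was 0.17 (adjusted p = 0.16). The high value of Msn was in KO replicate 2, the library with the highest lymphoid sum (182 FPKM). That library also had the highest endothelial sum of the KO group (173 FPKM, against 157 to 202 in WT). The part of other cells in this value was not tested.

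The YAP targets did not move as a group. Amotl2 (chr9:102716672-102733418), an angiomotin-like protein that holds YAP out of the nucleus and is itself induced by YAP, was at 10.3, 9.10 and 10.5 FPKM in WT and at 5.38, 5.84 and 6.16 in KO. It fell without overlap (log2 difference -0.69, SE 0.08, adjusted p = 0.0013 in limma), and in all 14 alternatives the call remained. Ctgf (current symbol Ccn2), a secreted matrix protein, was at 2.75, 2.15 and 2.35 FPKM in WT and at 1.87, 2.74 and 1.77 in KO. Its groups overlapped (log2 difference -0.14, adjusted p = 0.45 in limma). Cyr61 (current symbol Ccn1), its relative, was at 21.7, 16.6 and 18.6 FPKM in WT and at 6.71, 36.1 and 10.96 in KO. Thus 2 KO libraries lay below and 1 above the whole WT range, and no call was made (-0.40, SE 0.52, adjusted p = 0.55). Cyr61 was called lower without KO replicate 2 (-1.05, adjusted p = 0.017) and in KO replicate 1 alone (-1.37, adjusted p = 0.0028), and its difference was 0.08 without KO replicate 1. Ankrd1, a nuclear ankyrin repeat protein, was at 0.290, 0.186 and 0.0985 FPKM in WT and at 0.678, 7.42 and 2.45 in KO. All KO libraries were higher, but the highest was 10.9 times the lowest. Ankrd1 was called at 1.62 (SE 0.52, adjusted p = 0.043), and the call was lost in 8 of 13 alternatives. Leaving out WT replicates 1, 2 and 3 gave an adjusted p of 0.10, 0.11 and 0.12, and leaving out KO replicates 2 and 3 gave 0.053 and 0.077. Without KO replicate 2 its difference was 1.02, and in KO replicate 1 alone 0.50 (adjusted p = 0.032). With a pseudocount of 0.1 FPKM it was 3.13 (adjusted p = 0.017).

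**Figure D4:**
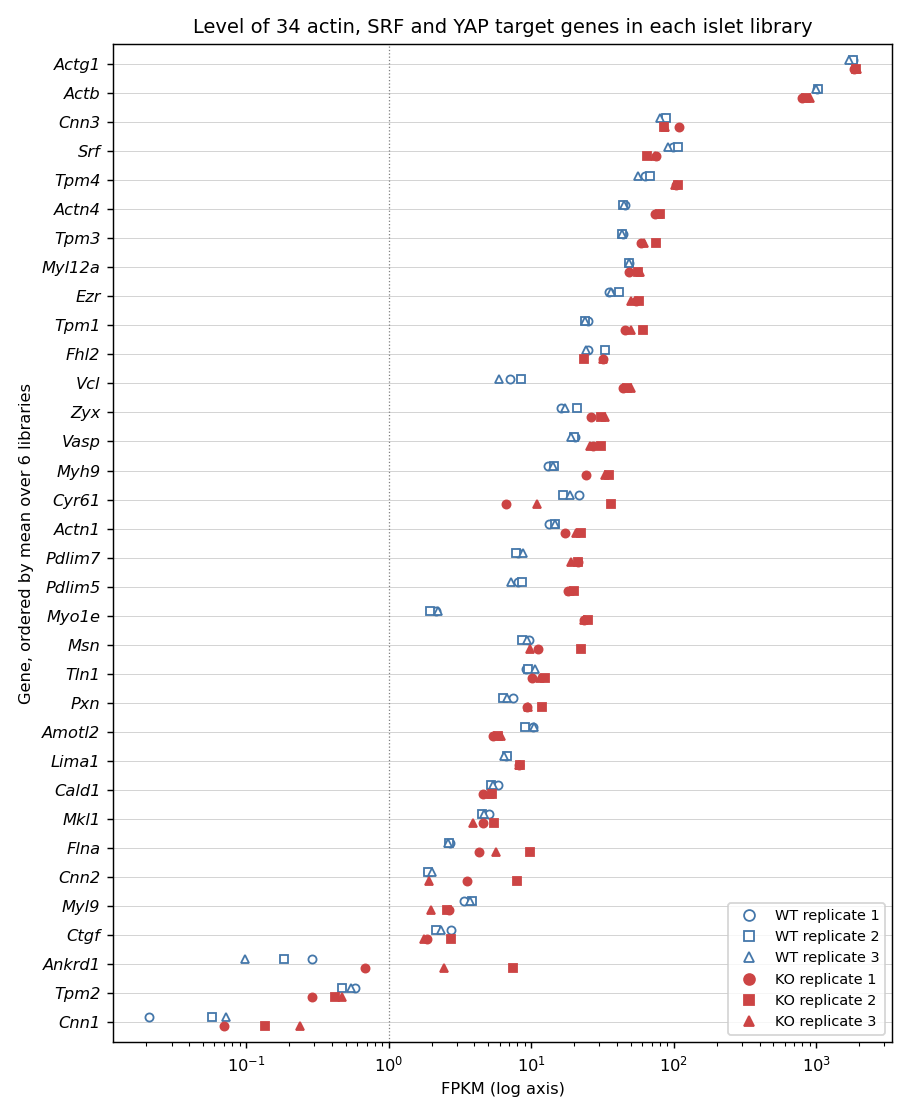
FPKM (x axis, log scale) of the 34 genes (y axis, ordered by mean) in each of the 6 libraries, with open blue symbols for WT and filled red for KO; the dotted line marks 1 FPKM, the mean needed for a test. Vcl and Myo1e show a clear gap between groups, Srf and Amotl2 lie lower in KO, and the KO symbols of Ankrd1, Cyr61, Cnn2, Flna and Msn are spread out with replicate 2 highest.

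The members differed in how alike the 3 KO libraries were. The members' median SD of log2 values was 0.15 within KO and 0.07 within WT, against 0.12 and 0.07 over all tested genes. The SD was larger in KO for 23 of 32 members (71.9%) and for 73.6% of all tested genes. KO replicate 2 was the highest KO library for 21 of the 32 (65.6%), against 25.6% of all tested genes. Vcl, Myo1e, Pdlim5, Pdlim7, Actn4, Tpm4, Lima1 and Ezr, named after their values were seen, had a highest KO library of at most 1.14 times the lowest. For Ankrd1, Cyr61, Cnn2, Msn and Flna the highest KO library was 10.9, 5.39, 4.13, 2.28 and 2.26 times the lowest, and in each of the 5 it was KO replicate 2. Lymphoid markers (182 FPKM) and macrophage markers (202 FPKM, against 102 to 117 in WT) were also highest in KO replicate 2, acinar and duct markers in KO replicate 3. Of that macrophage sum 94.8 FPKM came from Lyz2 alone (9.51 to 11.5 FPKM in WT). Of the 10 macrophage markers 2 were higher and 2 lower in all KO libraries, C1qa among the lower (51.5 to 58.8 FPKM in WT, 50.1, 42.5 and 37.2 in KO). In KO replicate 1, with an acinar sum below all WT libraries and a duct sum of 1311 FPKM against 1105 to 1213, the differences of Myo1e, Vcl, Pdlim7 and Pdlim5 were 2.98, 2.47, 1.28 and 1.09. Lymphoid markers were high in that library too (95.0 FPKM), so it is not free of other cells.

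**Figure D5:**
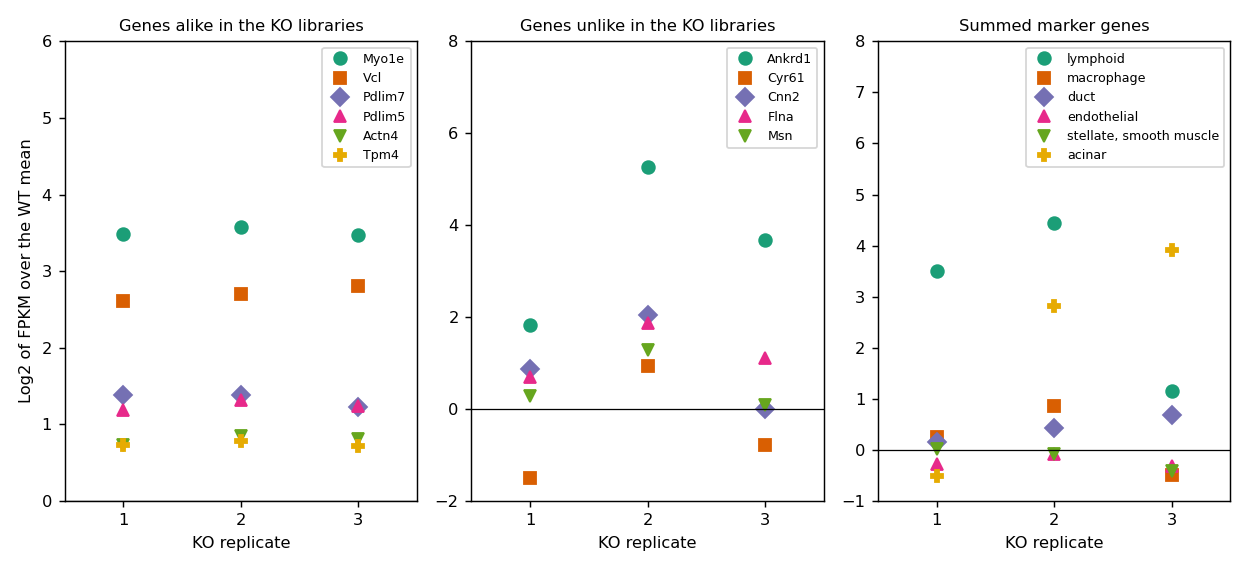
Log2 of FPKM in each KO library over the WT mean (y axis) for KO replicates 1, 2 and 3 (x axis). Left, 6 genes with like values in the KO libraries; middle, 5 genes with unlike values, all highest in replicate 2; right, summed markers, with lymphoid and macrophage genes highest in replicate 2 and acinar and duct genes in replicate 3. The genes of the left and middle panels were picked after their values were seen.

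Other genes of the same machinery, listed by function, were read from the same fit. Of 197 such genes 164 were tested, and 64 were called higher and 12 lower, with a median log2 difference of 0.19 (20.3% and 19.6% of all tested genes were called higher and lower). Some higher calls, named after their values were seen, were highest in KO replicate 2 and lowest in KO replicate 3, as the lymphoid sum was. In KO replicates 1, 2 and 3 Lcp1 was at 6.55, 18.5 and 4.98 FPKM, Arhgdib at 7.61, 13.8 and 2.64, Capg at 4.06, 7.24 and 1.84 and Myo1g at 1.78, 4.09 and 0.549. Others, also named after their values were seen, were lowest in KO replicate 1 and highest in KO replicate 3, as the acinar and duct sums were. Fjx1 was at 1.56, 6.50 and 11.1 FPKM and Pdlim1 at 4.68, 16.8 and 21.1 in KO replicates 1, 2 and 3. The part of other cells in these calls was not tested. Among 19 Hippo and TEAD genes 10 were higher and 2 lower. TAZ (Wwtr1), the partner of YAP, rose from 2.14, 2.20 and 1.73 FPKM to 3.54, 5.63 and 4.95 (log2 difference 0.90), and its DNA-binding partner Tead1 from 5.24, 5.89 and 5.94 to 8.91, 12.3 and 11.6 (0.82). The YAP gene Yap1, named after its values were seen, was at 1.32, 1.22 and 1.24 FPKM in WT and at 1.83, 4.62 and 4.13 in KO. It was called higher (log2 difference 0.94, SE 0.25, adjusted p = 0.023 in limma). Among the KO libraries it was lowest in KO replicate 1, as the acinar and duct sums were. The part of other cells in this call was not tested. Sav1, a scaffold of the Hippo kinases that restrain YAP, rose by 0.57. The 2 lower genes, named after their values were seen, were Nf2 (log2 difference -0.38), which activates the Hippo kinases, and the angiomotin-like gene Amotl1 (-0.37). Of 9 other YAP target genes, 4 were higher and 1 lower. Asap1, a GTPase-activating protein of adhesions, and F3, tissue factor, rose by 0.69 and 0.86. Arhgef17 was lower by a log2 difference of -0.25 and lost its call for KO replicate 1 alone (adjusted p = 0.17), when sums outside the acinar genes were made equal (0.064) and without any 1 of 5 libraries (adjusted p of 0.076, 0.060 and 0.078 without WT replicates 1, 2 and 3, and 0.058 and 0.052 without KO replicates 2 and 3).

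Of 15 further SRF and MRTF target genes 6 were higher and 1 lower, against 20.3% and 19.6% of all tested genes. Villin (Vil1), the bundler of microvilli, rose from 36.3, 36.5 and 34.2 FPKM to 60.6, 57.1 and 57.1 (log2 difference 0.69, adjusted p = 0.00052 in limma). Wdr1, which helps take filaments apart (0.64), and Tuft1 (0.71) were also among the higher. Of 4 SRF cofactor genes 1 was higher, Elk4 (0.48), and its call was lost without WT replicate 3 (adjusted p = 0.052). Of 27 genes of filament nucleation 9 were higher and 0 lower, with a median of 0.10. The formin genes Daam1 and Diap1 rose by 0.77 and 0.65 and the WAVE complex gene Wasf2 by 0.56. Turnover and capping genes were higher for 11 of 22 and lower for 0, led by the capping protein genes Capzb (54.0 to 55.8 FPKM in WT, 75.0 to 80.0 in KO) and Capza1 and by Cap1.

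Of genes that set myosin light chain phosphorylation, the kinase gene Rock2 rose by 0.52 and the myosin phosphatase subunit Ppp1r12a by 0.41. Rhob, an immediate early gene, was lower, at 167, 140 and 177 FPKM in WT and at 74.3, 68.3 and 77.3 in KO (log2 difference -1.12, SE 0.10, adjusted p = 0.00065 in limma). Of 15 other myosin genes 4 were higher and 2 lower, against 20.3% and 19.6% of all tested genes. Myo1c, class I like Myo1e, rose by 0.67, against 3.01 for Myo1e itself, and Myh14 by 0.31. The call of Myh14 was lost without WT replicate 1, 2 or 3 (adjusted p of 0.092, 0.052 and 0.12).

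Of 20 other adhesion plaque genes 5 were higher and 4 lower, against 20.3% and 19.6% of all tested genes, with a median of 0.01. Kindlin-2 (Fermt2) rose from 19.3, 23.6 and 19.5 FPKM to 34.9, 32.6 and 34.4 (log2 difference 0.69), while Nedd9 and Tns3, scaffolds of adhesions, fell by 0.70 and 0.55 on the log2 scale. Of 13 other crosslinkers and membrane linkers 4 were higher and 1 lower. Synaptopodin (Synpo), an alpha-actinin partner, rose from 4.99 to 5.67 FPKM in WT to 10.0 to 10.7 in KO (0.86), and palladin (Palld) from 0.227 to 0.487 to 1.76 to 2.44 (1.21). Without WT replicate 1 or WT replicate 3 the 64 higher and 12 lower calls over these lists dropped to 33 and 6 and to 31 and 6, and with equal sums outside the acinar genes the higher calls were 42.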

How the data were processed

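RNA sequencing libraries of islets from 3 WT and 3 KO pools were compared, grouped by their titles. TopHat2 2.0.8b, Cuffdiff 2.1.1 and build mm10 are named in the submitters' processing notes. The annotation, the strand setting and how libraries were scaled to each other were not stated there. The files name no unit, and the deposited numbers were read as FPKM, the unit Cuffdiff writes.

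The test ran on log2(FPKM + 1) for genes averaging 1 FPKM or more, with limma 3.58.1 in R 4.3.3 (a mean-variance trend, group as sole covariate, two-sided p with Benjamini-Hochberg adjustment, threshold 0.05). All log2 differences use that scale, so changes of weakly expressed genes come out too small. The fit was tried on simulated data with independent noise and the same spread in both groups. In these libraries the spread was larger in KO for 73.6% of tested genes, a setting the simulation did not hold. Positions came from GENCODE M21 on GRCm38, and promoters from RefSeq on GRCm38.p6. Members and lists were chosen with earlier results of these data known. Named pathway genes are up to 3 called genes of the smallest p per list, and those marked as named after their values were seen. Some genes this rule names, and 1 list, are not reported here. Of the 34 members, those called with a log2 difference of at least 0.5, the actins, Srf, Mkl1 and the YAP targets have all 6 values given or their ranges. 5 list symbols were matched through RefSeq synonyms and 1 to a row that joins Arpc4 with another symbol. Alternatives were a pseudocount of 0.1 FPKM, all genes or those averaging 5 FPKM, equal sums outside the acinar genes, quantile normalization, a robust prior, the replicate block, each library left out and KO replicate 1 alone. Exact permutation tests used scipy 1.17.1.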

Additional observations from a re-analysis of the deposited data

How the results depend on the processing

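The count of members called higher was 15 to 19 over the 14 alternatives against 17, and 15 to 19 when 1 library was left out. The count called lower was 3, between 2 and 4 when 1 library was left out, and 5 in KO replicate 1 alone. Of the member values under the alternatives, 412 kept their direction and side of the threshold, 15 lost and 9 gained a call and 6 changed sign. None of the 6 was called: Actg1 under quantile normalization (-0.67), Myl12a in KO replicate 1 alone (-0.0135), Cyr61 without KO replicate 1, Fhl2 without WT replicate 3, and Mkl1 without WT replicate 1 or KO replicate 3. Leaving out 1 library gave -1.05 to 0.0840 for Cyr61, -0.00222 to 0.219 for Fhl2 and -0.131 to 0.0722 for Mkl1. Over all tested genes, 2368 were higher and 2289 lower. With equal sums outside the acinar genes 1416 were higher, in KO replicate 1 alone 1267 were lower, and leaving out 1 library gave 1381 to 2890 higher and 1100 to 2837 lower. Of the other pathway genes, 64 higher and 12 lower, equal sums gave 42 higher and leaving out 1 library gave 31 to 72 and 6 to 14. The cause of these shifts was not tested. No scaling moved the median of all tested genes by over 0.1 log2. Same-numbered libraries did not deviate together (correlations of -0.21, -0.09 and 0.03 for numbers 1, 2 and 3), so the numbers were not taken as pairs. With the replicate block 16 members were called higher and 3 lower, and 1988 and 1877 of all tested genes. Fragments per FPKM were fewest in KO replicate 3, which limits low values such as those of Ankrd1 and Cnn1.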
